A study of Bos taurus with 8 samples.

Results

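The genes described here mark B lymphocytes and build or tune the B cell antigen receptor. They were chosen by name as CD79A, CD79B, MS4A1, CR2, CD22, BLK, TNFRSF13C, PAX5 and SPIB, and all probes whose accession belongs to 1 of these 9 symbols were taken. Accessions of the array matched 6 of the 9 genes, through 13 of the 43653 noncontrol probes. No probe could be matched to CD79B, CD22 or PAX5, which were not analysed here. The array measured each remaining gene with 1 to 4 probes: 1 for BLK, 2 each for CD79A, MS4A1, TNFRSF13C and SPIB, and 4 for CR2. Probes of a gene are numbered from the highest mean level down, and probe 1 stands for the gene in tests across genes.

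The study profiled total RNA of peripheral blood mononuclear cells, the blood fraction with lymphocytes and monocytes, from cows of 3 groups on 1-colour Agilent bovine arrays. The groups were lame crossbred cows (4 arrays), normal crossbred cows (2 arrays) and normal cows of the Tharparkar breed, an Indian zebu (2 arrays). All groups are untreated as far as the labels say, and the labels leave unsaid the breeds behind the crossbreds, the ages, and whether RNA of several animals was pooled. RNA was run in technical duplicate, and the lame titles R1 and R2 are read here as 2 RNA samples with 2 arrays each, and every normal group as 1 RNA sample with 2 arrays. No label states this outright, so each statement on RNA samples rests on that reading.

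B cells carry an antigen receptor made of a membrane immunoglobulin and a pair of signalling chains, CD79A and CD79B, whose tails recruit kinases once antigen is bound. CR2, which binds complement fragments on an antigen, lowers the threshold for this signal, whereas CD22 dampens it. BAFF, acting on its receptor TNFRSF13C, keeps mature B cells alive, and PAX5 and SPIB are transcription factors of the lineage. In blood, most of these transcripts come from the B cell share of the mononuclear fraction. In such bulk RNA, fewer B cells and less RNA per B cell cannot be told apart.

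Levels are log2 of the processed spot signal minus the array's 75th percentile, so 0 is the level of that percentile and a difference of 1 is a doubling of signal. Probe 1 of each of the 6 genes was well above background on all 8 arrays, as was probe 2 of CD79A, MS4A1, CR2, TNFRSF13C and SPIB. CR2 probe 3 was so on 5 arrays and CR2 probe 4 on 1 array, lame R2_2. The latter failed the background filter, which left 12 probes for testing. The mean level of 17 T cell markers ranged from 0.70 to 1.25 in the lame arrays, 1.50 to 1.52 in the normal crossbred arrays and 0.33 to 0.39 in the Tharparkar arrays. That of 14 monocyte markers ranged from 0.61 to 1.18, from 0.56 to 0.60 and from 1.04 to 1.06 in the same order. Granulocyte markers (12 measured) ranged from -1.02 to -0.66 in the lame arrays, 0.71 to 0.75 in the normal crossbred arrays and 0.92 to 0.99 in the Tharparkar arrays, and 7 of the 12 were called lower and 0 higher in lame arrays against either normal group. The 14 NK and cytotoxic markers ranged from 0.029 to 0.76, from 1.03 to 1.09 and from -0.22 to -0.15. The 7 platelet markers were lowest in the Tharparkar arrays (-1.22 to -1.10, against 0.0012 to 0.70 elsewhere). The 5 dendritic cell markers ranged from 1.34 to 1.75, from 0.95 to 0.96 and from 1.20 to 1.26, and the 8 erythroid markers from -0.80 to -0.017, from -1.03 to -0.87 and from -1.40 to -1.37. The part of these other cells in the results below was not tested.

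Between 52.8% and 61.5% of probes were well above background on 7 arrays, against 70.9% on lame R2_2, whose negative control spots had a median raw signal of 107 against 53 to 65 elsewhere. In the test across 15137 genes, 496 were higher and 959 lower in lame than in normal crossbred arrays. That split was 49 and 322 when arrays were centred on their median, 140 and 506 after normexp background correction, and 651 and 801 when probes of a gene were averaged. For lame against Tharparkar arrays it was 1899 and 1638, and it became 193 and 473 with the median and 730 and 1297 with normexp. All p-values take arrays as observations and measure the spread between arrays, which include duplicates, so as tests between animals they come out too small. With RNA sample as a random block (limma's duplicateCorrelation, correlation 0.82 within a sample) 0 of the 6 genes were called in any comparison. Unadjusted p was under 0.05 with the random block for 0, 2 and 3 of the 6 genes, beside 1187, 1856 and 2186 of the 15137. These counts are in the order lame against normal crossbred, normal crossbred against Tharparkar and lame against Tharparkar. Averaging the duplicates left 1 sample in each normal group and 1 residual degree of freedom, which came from the lame samples. That fit used a single variance for all genes, so its calls are listed at the end as counts and are not read as tests.

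**Figure D1:**
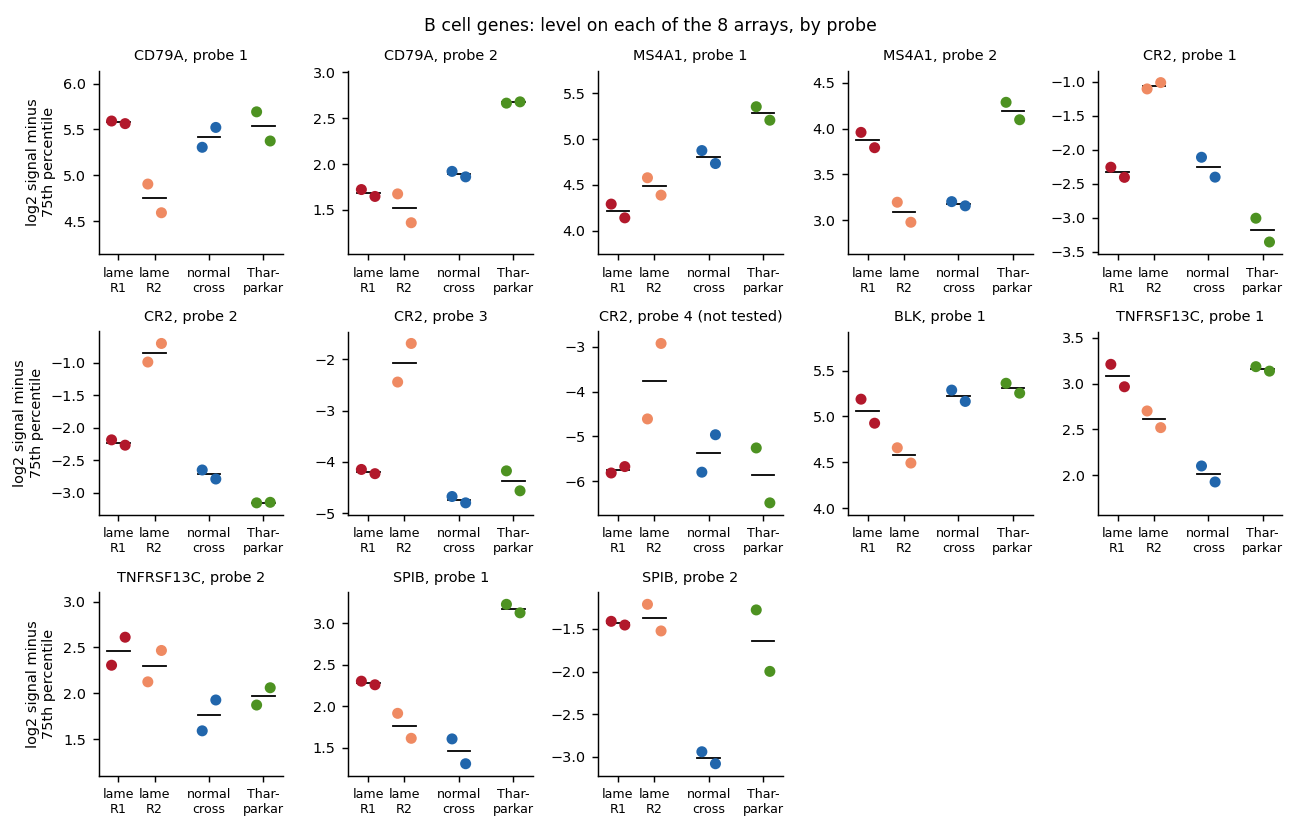
Level of every probe on each of the 8 arrays (points; log2 signal minus the array's 75th percentile), with a line at the mean of each pair of duplicate arrays; each panel spans its own range of at least 2 log2 units. SPIB probe 1 lies between 3.12 and 3.23 in the Tharparkar arrays and at or below 2.30 in all others, and CR2 probe 1 is highest in the lame R2 arrays.

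SPIB, an ETS family transcription factor that B cells and plasmacytoid dendritic cells use, differed most between the normal groups. Its probe 1 read 3.23 and 3.12 in the Tharparkar arrays and 1.60 and 1.30 in the normal crossbred arrays. The lame arrays lay between them, at 2.30 and 2.26 for R1 and 1.91 and 1.61 for R2, and no group overlapped another. SPIB was thus 3.30-fold lower in normal crossbred than in Tharparkar arrays (log2 fold change -1.72, SE 0.26, adjusted p = 0.0054). It was 2.23-fold lower in lame than in Tharparkar arrays (-1.16, SE 0.23, adjusted p = 0.0116). Against normal crossbred arrays the lame value was 0.57 higher (SE 0.23, adjusted p = 0.168), which did not pass the test.

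SPIB probe 2 gave the same order of the normal groups and another place to the lame arrays. It read -2.94 and -3.08 in the normal crossbred arrays, against -1.28 and -2.00 in the Tharparkar arrays and -1.21 to -1.52 in the lame arrays. The normal crossbred arrays stood alone at the low end, and the lame and Tharparkar arrays overlapped. In the fit of 24658 single probes this gave -1.37 for normal crossbred against Tharparkar (SE 0.25, adjusted p = 0.0121) and 1.61, or 3.05-fold, for lame against normal crossbred (SE 0.22, adjusted p = 0.0083). Lame against Tharparkar gave 0.24 (SE 0.22, adjusted p = 0.477), with the sign opposite to that of probe 1. The lower SPIB of the normal crossbred sample was therefore read by both probes, and the lower SPIB of the lame samples against Tharparkar by 1 of them.

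TNFRSF13C, the receptor through which BAFF sustains B cells, was also lowest in the normal crossbred arrays. Its probe 1 read 2.10 and 1.93 there, 3.18 and 3.14 in the Tharparkar arrays, 3.21 and 2.96 in lame R1 and 2.70 and 2.52 in lame R2. The normal crossbred arrays lay below all 6 others, while lame R1 overlapped the Tharparkar arrays. The receptor fell 2.21-fold in normal crossbred against Tharparkar arrays (-1.15, SE 0.24, adjusted p = 0.0176). It was 1.78-fold higher in lame than in normal crossbred arrays (0.84, SE 0.21, adjusted p = 0.0497), a call at the very threshold that was lost with slide as a block (adjusted p = 0.0748). Leaving out any 1 array other than lame R2_2 also ended this call, with adjusted p up to 0.336. In lame against Tharparkar arrays the difference was -0.31 (SE 0.21, adjusted p = 0.318).

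TNFRSF13C probe 2 was less spread. It read 1.59 and 1.93 in normal crossbred arrays, 1.87 and 2.06 in Tharparkar arrays and 2.12 to 2.61 in lame arrays. The normal groups overlapped, and the lame arrays lay above both. Lame against normal crossbred gave 0.62 (SE 0.19, adjusted p = 0.103), in the direction of probe 1. Normal crossbred against Tharparkar gave -0.21 (SE 0.22, adjusted p = 0.563) and lame against Tharparkar 0.41 (SE 0.19, adjusted p = 0.166). For the last comparison the sign was opposite to that of probe 1.

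MS4A1, the gene of CD20, a membrane protein of mature B cells, followed a graded order on its probe 1. It read 5.35 and 5.21 in the Tharparkar arrays, 4.87 and 4.73 in the normal crossbred arrays, 4.29 and 4.14 in lame R1 and 4.58 and 4.39 in lame R2. No group overlapped another, with Tharparkar highest and lame lowest. MS4A1 was 1.91-fold lower in lame than in Tharparkar arrays (-0.93, SE 0.16, adjusted p = 0.0077). The neighbours in that order did not pass the test: lame against normal crossbred gave -0.45 (SE 0.16, adjusted p = 0.130) and normal crossbred against Tharparkar -0.48 (SE 0.19, adjusted p = 0.123). After quantile normalization the called difference was -0.60 (adjusted p = 0.160), and after normexp -0.54 (adjusted p = 0.0768).

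MS4A1 probe 2 kept the Tharparkar arrays on top, at 4.29 and 4.10. Lame R1 followed at 3.96 and 3.79, and the normal crossbred arrays at 3.20 and 3.16 shared their level with lame R2 at 3.20 and 2.98. Lame against Tharparkar was -0.71 (SE 0.29, adjusted p = 0.125) and normal crossbred against Tharparkar -1.01 (SE 0.34, adjusted p = 0.0804), both in the direction of probe 1. Lame against normal crossbred turned to 0.30 (SE 0.29, adjusted p = 0.575). The probes thus put lame R1 at opposite ends of the crossbred arrays: lowest on probe 1 and highest on probe 2.

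CD79A, a signalling chain of the antigen receptor, did not differ by a called amount on its probe 1. This probe read 5.59 and 5.56 in lame R1, 4.90 and 4.59 in lame R2, 5.30 and 5.52 in normal crossbred arrays and 5.69 and 5.37 in Tharparkar arrays. Lame R2 alone lay low, and the other 6 arrays overlapped. The difference was -0.25 for lame against normal crossbred (95% interval of the single-probe fit -0.99 to 0.48, adjusted p = 0.673). It was -0.12 between the normal groups (-0.97 to 0.73, adjusted p = 0.853) and -0.37 for lame against Tharparkar (-1.11 to 0.37, adjusted p = 0.426). Decreases down to these lower bounds were not excluded by this probe.

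CD79A probe 2, with a tighter spread, set the Tharparkar arrays apart from the crossbred arrays. Breed and the single Tharparkar RNA sample cannot be told apart. It read 2.67 and 2.68 in the Tharparkar arrays, 1.92 and 1.86 in the normal crossbred arrays and 1.36 to 1.72 in the lame arrays. The Tharparkar arrays stood clear above all crossbred arrays. In the fit of single probes CD79A probe 2 was 1.72-fold lower in normal crossbred arrays (-0.78, SE 0.18, adjusted p = 0.0250) and 2.10-fold lower in lame arrays (-1.07, SE 0.15, adjusted p = 0.0044) than in Tharparkar arrays. Lame against normal crossbred was -0.29 (SE 0.15, adjusted p = 0.302).

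BLK, a Src family kinase that acts next to the receptor, was measured by 1 probe and passed no test. It read 5.36 and 5.25 in the Tharparkar arrays, 5.29 and 5.16 in the normal crossbred arrays, 5.19 and 4.93 in lame R1 and 4.66 and 4.49 in lame R2. Lame R2 lay lowest and lame R1 overlapped the normal crossbred arrays. Lame against normal crossbred was -0.41 (95% interval -0.91 to 0.09, adjusted p = 0.274), the normal groups differed by -0.08 (-0.66 to 0.50, adjusted p = 0.849) and lame against Tharparkar was -0.49 (-0.99 to 0.01, adjusted p = 0.133).

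CR2, the complement receptor CD21, was highest in the lame R2 sample. Its probe 1 read -1.10 and -1.01 there, -2.25 and -2.40 in lame R1, -2.11 and -2.40 in the normal crossbred arrays and -3.00 and -3.35 in the Tharparkar arrays. Lame R1 overlapped the normal crossbred arrays, and the Tharparkar arrays lay below all others. CR2 was 2.80-fold higher in lame than in Tharparkar arrays (1.49, SE 0.44, adjusted p = 0.0473), a call lost with slide as a block (adjusted p = 0.0766). Against normal crossbred arrays the difference was 0.56 (SE 0.44, adjusted p = 0.474), and between the normal groups 0.93 (SE 0.51, adjusted p = 0.248).

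CR2 probe 2 ran alongside, with -0.99 and -0.71 in lame R2, -2.19 and -2.27 in lame R1, -2.65 and -2.79 in normal crossbred arrays and -3.15 and -3.14 in Tharparkar arrays. Lame against Tharparkar was 1.61 (SE 0.46, adjusted p = 0.0464) and lame against normal crossbred 1.18 (SE 0.46, adjusted p = 0.176). CR2 probe 3 was well above background on all 4 lame arrays, on 0 of 2 normal crossbred arrays and on 1 of 2 Tharparkar arrays, so it passed the background filter only through the lame group. It read -4.15 and -4.23 in lame R1, -2.44 and -1.69 in lame R2, -4.67 and -4.80 in normal crossbred and -4.17 and -4.56 in Tharparkar arrays. Lame R2 alone stood clear, and lame R1 lay near the normal arrays. The mean level of the 4 lame arrays was at least 2.92-fold that of the normal crossbred arrays. Lame R1 averaged -4.19 and lame R2 -2.07, so lame R2 carried this mean. For the bound, the dim group was set at the lowest signal well above background on each array or the probe's own signal if higher. These values describe a probe that the filter kept for being bright in lame arrays.

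The CR2 probes were brightest on the arrays with the most probes above background. Probe 1 differed by 1.27 between the lame samples, probe 2 by 1.38 and probe 3 by 2.12, and the arrays of lame R2 had the highest shares of probes well above background, 61.5% and 70.9%. CR2 probe 1 had processed signals of 20.5 to 26.9 in the Tharparkar arrays and 57.0 to 174 in the lame arrays. The normexp setting added an offset of 50, which by itself narrows the fold changes of such dim probes. With normexp on the median spot signal, CR2 in lame against Tharparkar arrays shrank to 0.10 (adjusted p = 0.830). Without lame R2_2 it was 1.26 (adjusted p = 0.0582), without lame R2_1 1.29 (adjusted p = 0.0836), and without a single Tharparkar array adjusted p was 0.172 or 0.248. Without a single normal crossbred array it was 0.0822. The part of the array's background in this difference was not tested.

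**Figure D2:**
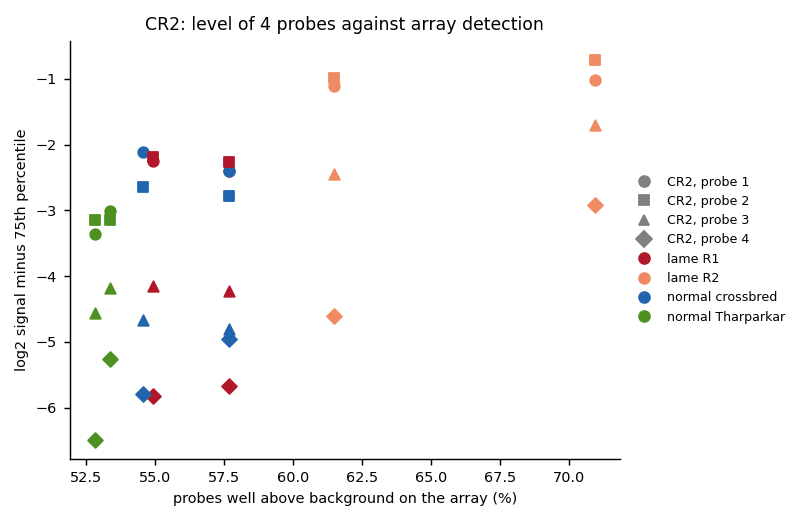
Level of the 4 CR2 probes (y axis, log2 signal minus the array's 75th percentile) against the percent of all probes well above background on the same array (x axis); each point is a probe on an array, shapes mark probes and colours RNA samples. The lame R2 arrays, at 61.5% and 70.9%, hold the highest value of every probe.

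In lame against normal crossbred arrays, of the 6 genes 1 was higher, TNFRSF13C, and 0 were lower, beside 9.61% of all genes called in either direction, 3.28% higher and 6.34% lower. The median log2 fold change of the 6 was 0.16, beside -0.04 over all genes. MS4A1 lay lower without overlap and SPIB and TNFRSF13C higher without overlap, so 3 of 6 genes did not overlap, beside 38.9% of all genes. Of the 12 probes 1 was called, SPIB probe 2, beside 7.39% of all probes, 3.21% higher and 4.17% lower. Against the normal crossbred arrays, lame R1 alone gave 0.16 for CD79A and -0.07 for CR2, whereas lame R2 alone gave -0.67 and 1.20.

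Between the normal groups, SPIB and TNFRSF13C fell in the crossbred arrays and 0 of the 6 genes rose, beside 18.7% of all genes called, 6.91% lower and 11.8% higher. The median was -0.30, beside 0.01 over all genes. Of the 12 probes 4 fell, the others being SPIB probe 2 and CD79A probe 2, beside 17.7% of all probes, 8.02% lower and 9.68% higher. No overlap between groups was seen for 4 of 6 genes, beside 81.9% of all genes. The SPIB differences were -1.62 within slide 1 and -1.82 within slide 2, and those of TNFRSF13C -1.08 and -1.21. If each normal group is 1 RNA sample, as read here, both slides measured the same RNA and the slides are not independent. The TNFRSF13C call was lost without any 1 of the 4 normal arrays (adjusted p 0.0904 to 0.129), and the SPIB call without normal crossbred R2 (0.0563) or Tharparkar R1 (0.0510).

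In lame against Tharparkar arrays, MS4A1 and SPIB were lower and CR2 higher, 3 of 6 genes beside 23.4% of all genes called, 10.8% lower and 12.5% higher. The median was -0.43, beside -0.01. Of the 12 probes 4 were called, with MS4A1 probe 1, SPIB probe 1 and CD79A probe 2 lower and CR2 probe 2 higher, beside 21.6% of all probes, 9.87% lower and 11.7% higher. Without overlap were 4 of 6 genes, the called ones and BLK, beside 50% of all genes. This comparison shares its lame arrays with the first and its Tharparkar arrays with the second, so the 3 sets of values are not independent. The calls of MS4A1 and SPIB were lost without Tharparkar R1 (adjusted p = 0.0916 and 0.106) and without Tharparkar R2 (0.0609 and 0.0841).

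**Figure D3:**
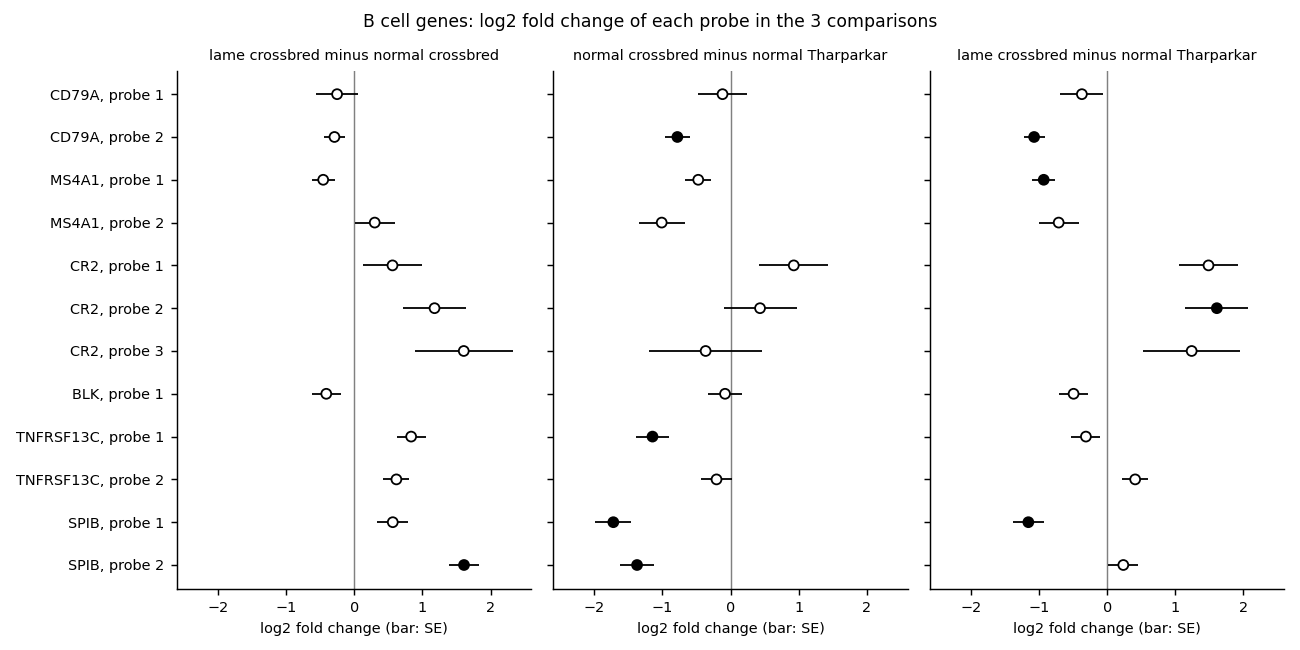
Log2 fold change of each of the 12 tested probes (points) with its standard error (bars) in the 3 comparisons; filled points passed an adjusted p of 0.05 in the fit of 24658 single probes. The probes of MS4A1 lie on opposite sides of 0 in lame against normal crossbred arrays, and those of SPIB and of TNFRSF13C do so in lame against Tharparkar arrays.

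Probes of a gene did not always agree in sign. Of the 5 genes with several tested probes, 1 had probes of opposite sign in lame against normal crossbred arrays (MS4A1), 1 between the normal groups (CR2) and 2 in lame against Tharparkar arrays (TNFRSF13C and SPIB). The CR2 difference in sign came from probe 3 alone (-0.37, SE 0.83). That probe was well above background on 0 of 2 normal crossbred and 1 of 2 Tharparkar arrays. The probes agreed in sign in every comparison for CD79A, and so did probes 1 and 2 of CR2. BLK had 1 probe.

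The genes around the receptor were taken from 6 lists with 71 measured genes. In lame against normal crossbred arrays 1 of the 71 was higher and 4 lower, or 7.04%. Between the normal groups 3 were higher and 11 lower, or 19.7%, and in lame against Tharparkar arrays 2 and 14, or 22.5%. These shares lie close to the 9.61%, 18.7% and 23.4% of all genes. With RNA sample as a random block 0 of the 71 were called in any comparison, and with slide as a block 2, 8 and 15. Of the 33 calls of named list genes, 27 were lost without at least 1 array, and 6 were kept: ELL2 in both lame comparisons, ZBTB32 in both comparisons with Tharparkar, and IRF8 and TXNDC5 in lame against Tharparkar arrays. Over all alternatives, 282 of 599 values of these named genes lost the call.

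Among 16 receptor signalling genes, BTK, the kinase that links the receptor to calcium release, was higher in lame than in normal crossbred arrays (0.70, SE 0.16, adjusted p = 0.0356, and 0.0657 with slide as a block). It was also higher than in Tharparkar arrays (0.86, SE 0.16, adjusted p = 0.0092). BTK read 1.79 to 2.16 in the lame arrays, 1.39 and 1.13 in normal crossbred and 1.11 and 1.09 in Tharparkar arrays, and the lame arrays lay above all others. BCL10, an adaptor towards NF-kB, was lower than in Tharparkar arrays in the lame arrays (-1.09, SE 0.19, adjusted p = 0.0079) and in the normal crossbred arrays (-0.85, SE 0.22, adjusted p = 0.0365, and 0.0642 with slide as a block). Another BCL10 probe gave 0.11 and -0.10 for these. The adaptor SH3BP2 was lower too (-0.94, SE 0.18, adjusted p = 0.0102, and -0.87, SE 0.20, adjusted p = 0.0260). The lipid kinase subunit PIK3CD was higher in normal crossbred than in Tharparkar arrays (1.28, SE 0.34, adjusted p = 0.0408, and 0.0714 with slide as a block), with 0.20 on its lowest probe. The list median was 0.02, -0.12 and -0.03 in the order lame against normal crossbred, normal crossbred against Tharparkar and lame against Tharparkar.

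Several genes that restrain the receptor were lower in crossbred than in Tharparkar arrays. Of 10 measured inhibitors 4 fell and 0 rose in normal crossbred arrays (median -0.66), beside 6.91% of all genes lower and 11.8% higher. In lame arrays 3 fell and 0 rose (median -0.62), beside 10.8% lower and 12.5% higher. With RNA sample as a random block 0 of the 10 were called. CD5, a scavenger receptor of T cells and of a B cell subset, fell in both (-1.07, SE 0.23, adjusted p = 0.0177, and -0.89, SE 0.20, adjusted p = 0.0178), although another probe gave -0.06 and 0.97. FCGR2B, the inhibitory Fc receptor, fell as well (-0.67, SE 0.18, adjusted p = 0.0402, and 0.0609 with slide as a block for normal crossbred; -0.68, SE 0.16, adjusted p = 0.0207 for lame), with all 3 probes below 0. The sialic acid receptor SIGLEC10 (-1.02, SE 0.20, adjusted p = 0.0143) and the adaptor DOK3 (-0.77, SE 0.21, adjusted p = 0.0453, and 0.0648 with slide as a block) fell in normal crossbred arrays, and the kinase CSK (-0.70, SE 0.16, adjusted p = 0.0181) in lame arrays. In lame against normal crossbred arrays 0 of 10 were called by limma (median -0.02). After normexp 0 of the 10 were called between the normal groups and 1 in lame against Tharparkar arrays, with medians of -0.55 and -0.40.

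Of 14 other B lineage transcription factors, 2 fell and 0 rose in lame against normal crossbred arrays, beside 6.34% of all genes lower and 3.28% higher. BCL6, the germinal centre repressor, fell by 1.11 on the log2 scale (SE 0.13, adjusted p = 0.0033), and it was lower than in Tharparkar arrays as well (-0.77, SE 0.13, adjusted p = 0.0061). MEF2C was lower (-0.55, SE 0.14, adjusted p = 0.0456, and 0.0587 with slide as a block). Against Tharparkar arrays ZBTB32 and IRF8 were lower in both crossbred groups. ZBTB32, a repressor of plasma cell formation, read 1.80 and 1.65 in Tharparkar, -0.25 and -0.04 in normal crossbred and 0.26 to 0.62 in lame arrays (-1.87, SE 0.19, adjusted p = 0.0012 for normal crossbred and -1.26, SE 0.16, adjusted p = 0.0024 for lame). The groups did not overlap, in the same order as for SPIB probe 1. IRF8, which myeloid cells also use, was lower by -0.75 (SE 0.19, adjusted p = 0.0356) and -1.30 (SE 0.17, adjusted p = 0.0024). EBF1, a factor that sets up the B lineage, read 1.45 to 2.02 over all 8 arrays on its brightest probe, which passed no test. Its 3 probes did not agree, with -0.12 on the lowest and 0.80 on the highest in lame against normal crossbred arrays.

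No gene of the 7 measured in the BAFF, APRIL and CD40 family was called by limma in any comparison. TNFSF13B, which encodes BAFF, the ligand of TNFRSF13C, gave 0.58 (SE 0.35, adjusted p = 0.343) for lame against normal crossbred, 0.48 (SE 0.40, adjusted p = 0.454) between the normal groups and 1.06 (SE 0.35, adjusted p = 0.0643) for lame against Tharparkar. Of 14 further B cell markers, CD37, a tetraspanin of mature B cells, fell in both crossbred groups against Tharparkar arrays (-0.60, SE 0.16, adjusted p = 0.0413 for normal crossbred and -0.77, SE 0.14, adjusted p = 0.0091 for lame). These CD37 calls were lost under 12 alternatives and kept under 5 for normal crossbred, and lost under 8 and kept under 11 for lame, with quantile normalization and normexp among those that lost both. Under these 2 settings 0 of the 14 markers were called between the normal groups. CD1B, a lipid antigen presenter, counts among the higher calls between the normal groups, but it passed the background filter only through the normal crossbred arrays (2 of 2, with 1 of 4 lame and 0 of 2 Tharparkar arrays). Its level there was at least 1.81-fold that of the Tharparkar arrays, and its log2 fold change turned to -0.34 with normexp. In lame against normal crossbred arrays 0 of these 14 were called.

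Plasma cell genes, which B cells turn on as they become antibody secretors, had the lowest medians among these lists in the lame arrays. Of 12 measured, 2 fell and 0 rose in lame against normal crossbred arrays (median -0.40), beside 6.34% of all genes lower and 3.28% higher. In lame against Tharparkar arrays 5 fell and 1 rose (median -0.72), beside 10.8% lower and 12.5% higher. With RNA sample as a random block 0 of the 12 were called. ELL2, an elongation factor, read -2.95 to -2.59 in the lame arrays, -1.21 and -0.68 in normal crossbred and -0.84 and -0.66 in Tharparkar arrays, which left the lame arrays apart at the low end. It was lower than in normal crossbred arrays (-1.80, SE 0.19, adjusted p = 0.0022), where another probe gave -0.04, and than in Tharparkar arrays (-1.99, SE 0.19, adjusted p = 0.0008). TXNDC5, an oxidoreductase of the secretory pathway, was lower by -0.60 (SE 0.15, adjusted p = 0.0467, and 0.0806 with slide as a block) and -1.16 (SE 0.15, adjusted p = 0.0023). IRF4 was lower than in Tharparkar arrays in lame arrays (-1.05, SE 0.27, adjusted p = 0.0300, and 0.0504 with slide as a block) and in normal crossbred arrays (-1.29, SE 0.31, adjusted p = 0.0286, and 0.0501 with slide as a block). PRDM1 was higher in both (0.99, SE 0.22, adjusted p = 0.0173, and 1.27, SE 0.25, adjusted p = 0.0138), with -0.18 on its lowest probe in lame arrays. XBP1, which drives the secretory programme, was lower in both (-0.93, SE 0.16, adjusted p = 0.0080 for lame and -0.69, SE 0.19, adjusted p = 0.0446, and 0.0685 with slide as a block for normal crossbred), with probes as high as 0.04 and -0.04. The median between the normal groups was -0.10. JCHAIN, the joining chain of secreted antibodies, read 2.29 and 2.21 in lame R1, 3.34 and 3.24 in lame R2 and 3.82 to 3.88 in the normal arrays. No test was passed (-1.09, adjusted p = 0.104 against normal crossbred, where another JCHAIN probe gave -0.51).

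**Figure D4:**
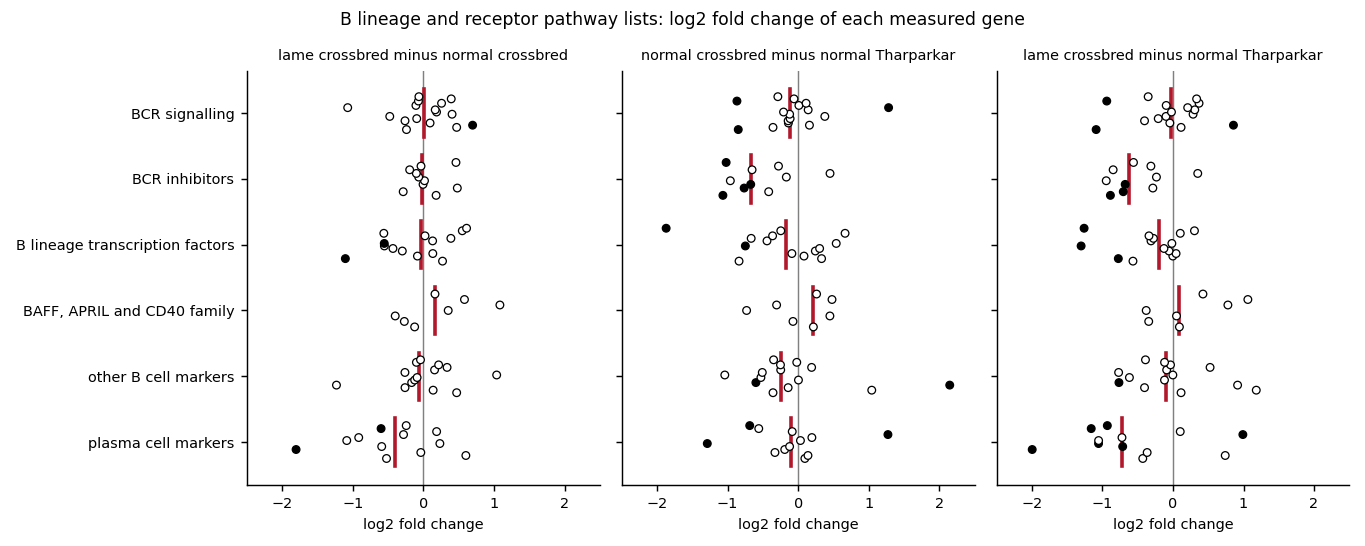
Log2 fold change of each measured gene (points) of the 6 lists in the 3 comparisons, with a red bar at the list median; filled points passed an adjusted p of 0.05 over 15137 genes. The inhibitor list has medians of -0.66 and -0.62 against Tharparkar arrays and -0.02 in lame against normal crossbred arrays.

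The 6 measured genes did not share 1 pattern over the arrays. The Pearson correlation of a gene with the mean of the other 5, each centred on its own mean, was 0.74 for SPIB, 0.59 for TNFRSF13C, 0.26 for BLK, 0.22 for MS4A1, 0.17 for CD79A and -0.85 for CR2. The points are 8 arrays, read as 4 RNA samples, so these values describe little more than 4 levels. Among 10790 genes with an SD over the arrays of at least 0.3, the 4 named genes most like the mean of the 6 were ITGB1BP1 (r = 0.98), GRPEL1 (0.97), COA1 (0.96) and UQCC2 (0.96), and 4 further features among the 8 most alike had no gene name here. UQCC2, an assembly factor of a respiratory complex, read 5.11 and 5.06 in the Tharparkar arrays, 4.14 and 4.07 in normal crossbred arrays and 4.10 to 4.60 in lame arrays. The 3 features most opposed, with r between -0.98 and -0.99, had no gene name here either.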

How the data were processed

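Scanner files of 8 arrays were used. Per the file headers, the authors' processed intensity had its background removed and its spatial trend corrected by Agilent Feature Extraction 12.0.3.1 (11.5.1.1 in the submitters' processing notes). A second file deposited by the authors holds log2 values whose scale, centring and direction are unstated. Its columns followed log2 processed signals after the same scaling as used here and centring on each probe's median (correlation 0.999998 or higher on each array), and its medians were 0.00, 0.00, -0.13 and 0.88 for lame R1_1, R2_1, R1_2 and R2_2, -0.07 and -0.12 for normal crossbred and 0.03 and 0.09 for Tharparkar arrays.

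Log2 processed signals were scaled here to the 75th percentile of 43653 noncontrol probes, without 35 outlier-flagged probes. A probe was kept if all arrays of any group had it well above background (24658 probes). Probes were named by unversioned accession through a RefSeq table of ARS-UCD2.0 (no coordinates were used, as the array annotation is bosTau6), and the brightest represented each of 15137 genes. The comparisons used limma (version 3.58.1 under R 4.3.3, 2-sided moderated tests, 5 residual and 2.34 prior degrees of freedom, Benjamini-Hochberg over all genes or probes, called under 0.05), in 1 fit of 3 group means, which was tested on simulated data. Lists were described by counts and medians. The members and lists were chosen with earlier results of these data known. The named genes are the members, up to 4 called genes of each list with the largest change, and the genes most like or most opposed to the members' mean. EBF1, TNFSF13B and JCHAIN, and XBP1 in lame against Tharparkar arrays, were added after their values were seen. The mean spot signal planned for normexp is no column of the scanner files used here, so the median spot signal was chosen after seeing the data. Normexp used an offset of 50, which narrows the fold changes of dim probes.

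Headers put the arrays on 2 slides, each with all groups: R1 of the normal groups and lame titles ending in 1 on slide 1. Deviations from group means on a slide correlated at 0.21 to 0.27 between groups across genes, so slide served as the replicate block in an alternative fit. The main fit had no term for slide. The number of arrays, and of the RNA samples behind them, limits precision.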

Additional observations from a re-analysis of the deposited data

How the results depend on the processing

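For lame against normal crossbred, normal crossbred against Tharparkar and lame against Tharparkar arrays in turn, 1, 2 and 3 of the 6 B cell genes and 1455, 2829 and 3537 of all genes were called. With the array median as scale these were 0, 0 and 0 and 371, 446 and 666, where the median of all genes moved to -0.55, -0.03 and -0.56. Without the filter on dim probes they were 0, 1 and 1 and 356, 995 and 1360, and after normexp 1, 2 and 1 and 646, 1329 and 2027. Averaged duplicates gave 0, 0 and 0 and 167, 375 and 532, and the random block for RNA sample 0, 0 and 0 and 26, 96 and 204. The fit of averaged duplicates had 1 sample in each normal group and a single variance for all genes. Its counts therefore cannot show whether a call holds. With slide as replicate block the B cell genes called were 0, 2 and 2, and 1008, 2276 and 2905 of all genes. For the first comparison quantile normalization and averaging the probes of a gene gave 2 B cell genes, and the authors' deposited table and the fit of single probes, counting probe 1 of each gene, 0. Quantile normalization gave 1 for the third.

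Lame R1 alone gave 3 and 7167 against normal crossbred arrays and 8382 of all genes against Tharparkar arrays, and lame R2 alone gave 4 and 7005, and 6 and 8797. Leaving out 1 array gave 0 to 1, 0 to 2 and 0 to 4 B cell genes, and 181 to 1819, 717 to 3979 and 854 to 3920 of all genes. Of 366 values for single B cell genes, 276 kept direction and side of the threshold, 60 lost a call, 16 gained one and 14 turned. Most of the 276 belong to results not called in the main fit, which have no call to lose. For lame against normal crossbred, the TNFRSF13C call was kept under 6 alternatives and lost under 15. Between the normal groups it was kept under 10 and lost under 9, and the SPIB call under 14 and 5. For lame against Tharparkar these were 13 and 7 for SPIB, 13 and 8 for MS4A1 and 6 and 16 for CR2. With lame R1 alone, CD79A turned to 0.16 against normal crossbred and 0.045 against Tharparkar arrays, and CR2 to -0.075 against normal crossbred arrays. Between the normal groups CD79A turned to 0.090 with quantile normalization and 0.22 with normexp (range without 1 array -0.28 to 0.040), BLK to 0.12 and 0.17, CR2 to -0.18 and CD1B to -0.34 with normexp, and CR2 probe 3 gave -0.37. MS4A1 probe 2 gave 0.30 for lame against normal crossbred. For lame against Tharparkar, TNFRSF13C turned to 0.050 with the mean of probes and 0.41 on probe 2, SPIB to 0.24 on probe 2 and CD5 to 0.043 with the mean of probes. The cause was not tested. Closeness to background limits the CR2 values.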
